A study of Rattus norvegicus with 6 samples.

Results

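The neuropeptide precursor genes Tac1, Calca, Calcb, Sst, Nppb, Nmb and Grp, peptides that nociceptors make without injury, were followed in the rat dorsal root ganglion (DRG) after nerve ligation. For each gene the row of the deposited expression table that carries its symbol was taken, a protein-coding row first and then the row with the most counts, which gave 7 of the 43350 gene rows. In the table's coordinates for the rat genome that the study calls V101, Tac1 lies on the plus strand at chr4:33638709-33646819 and Sst at chr11:80358211-80359444. Calca, on the minus strand at chr1:184184020-184188911, and Calcb, on the plus strand at chr1:184271590-184276475, are neighbours. Nppb lies at chr5:164796185-164797531 (plus), Nmb at chr1:142721002-142724511 (minus) and Grp at chr18:61563053-61576818 (plus). These spans include the introns, and the counts of a row are not split by exon or splice form.

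Nociceptors are the sensory neurons that respond to harmful heat, cold, pressure and chemicals, and their cell bodies sit in the DRG. A large class of them, the peptidergic nociceptors, makes neuropeptides as longer precursors, which are cut by convertases in dense-core vesicles and released in the spinal dorsal horn and in the skin. There they act on G protein-coupled receptors or, for the natriuretic peptides, on receptors that make cyclic GMP.

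The CCI group had the left sciatic nerve tied loosely with ligatures (chronic constriction injury, a rat model of neuropathic pain), and in the sham group, per the study's methods, the nerve was exposed and not tied, although the labels give the sham rats no treatment. All rats were male Sprague-Dawley rats, for which the labels name no genotype and no age, and total RNA of the lumbar 4 to 6 DRG was taken 11 days after surgery. There were 3 CCI and 3 sham libraries, depleted of ribosomal RNA. The methods describe 1 rat per sample with ganglia of the operated side, while the labels' library protocol speaks of a pooled sample. Per the methods, rats were allotted to the surgeries at random, those with the behaviour looked for were kept, and the rats sequenced were drawn from these at random. P-values measure the spread between these 6 samples.

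The libraries held 75423546 to 87615743 counts. A floor of 3 counts, given as a reference for counting error, lay at 0.0342 to 0.0394 CPM (counts relative to the effective size of each library). The test was edgeR's quasi-likelihood test on the 26663 rows whose FPKM (counts scaled for row length and library total) averaged 0.5 or more. A row was called where its log2 fold change reached 0.58 in either direction with an unadjusted p under 0.05, the limits of the study. Of all rows tested, 2.57% were called higher and 1.26% lower in the CCI group. At a Benjamini-Hochberg adjusted p under 0.05 in the same edgeR test, the shares were 0.0638% higher and 0.0300% lower. The 13 pan-neuronal markers, among them Tubb3 and Uchl1, together made up 2.05% to 2.22% of the CPM of a library. Sham 1 carried more skeletal muscle RNA than the other libraries, with a summed CPM of 424 over 8 muscle markers against 9.03 to 54.4 in the other 5 libraries.

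Short stretches around the transcription start are shown because several of these genes are known as targets of cyclic AMP signalling, which acts through the cAMP response element TGACGTCA and its half-site TGACG, which reads CGTCA on the other strand. RefSeq promoters of build GRCr8, from 250 bases before to 50 bases after the annotated start, were searched on both strands for 6 of the 7 genes, and Calcb had no entry in the table used. The coordinates of these stretches belong to GRCr8 and not to the genome of the deposited table. Capitals mark the matched letters:
Sst, chr11:90461537-90461566, plus strand: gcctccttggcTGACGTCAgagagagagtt
Tac1, chr4:36645365-36645394, plus strand: tccctaaaattgCGTCAtttcgaacccaat
Calca, chr1:178317624-178317653, minus strand: gaagcaccgaggTGACGcaatctgtctggg

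Sst was the member with the full element, which starts 2 bases after the annotated start and includes both half-sites. Tac1 held 1 half-site 206 bases before its start, Calca held 1 at 112 bases before and Grp held 1 at 86 bases before. Nppb and Nmb held none. Of the 33469 promoters in the table, 612 (1.83%) held the full element and 7097 (21.2%) held a half-site on either strand, so a half-site alone is common. These matches describe letters and do not show binding.

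Of the 7 peptide genes, 6 had counts and were tested, and none of these 6 was called in either direction 11 days after ligation. Of all rows tested, 2.57% were called higher and 1.26% lower, so 0 called among 6 genes is near those shares. The same holds for the short lists further on of which 0 were called. With edgeR's quasi-likelihood test, 1 of the 6, Calca, had an unadjusted p under 0.05, and 0 had a Benjamini-Hochberg adjusted p under 0.05. By DESeq2 the number with an unadjusted p under 0.05 was also 1, and by edgeR's exact test and limma it was 0. The median log2 fold change of the 6 genes was 0.01, as was the median over all rows tested. The 95% interval lay inside -0.58 to 0.58 for 4 of the 6 genes (Tac1, Calca, Calcb and Sst), while 47.0% of all rows tested had an interval that narrow and central. Nppb and Nmb had wider intervals. In whole ganglia, fewer cells of a type and less RNA per cell cannot be told apart.

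**Figure D1:**
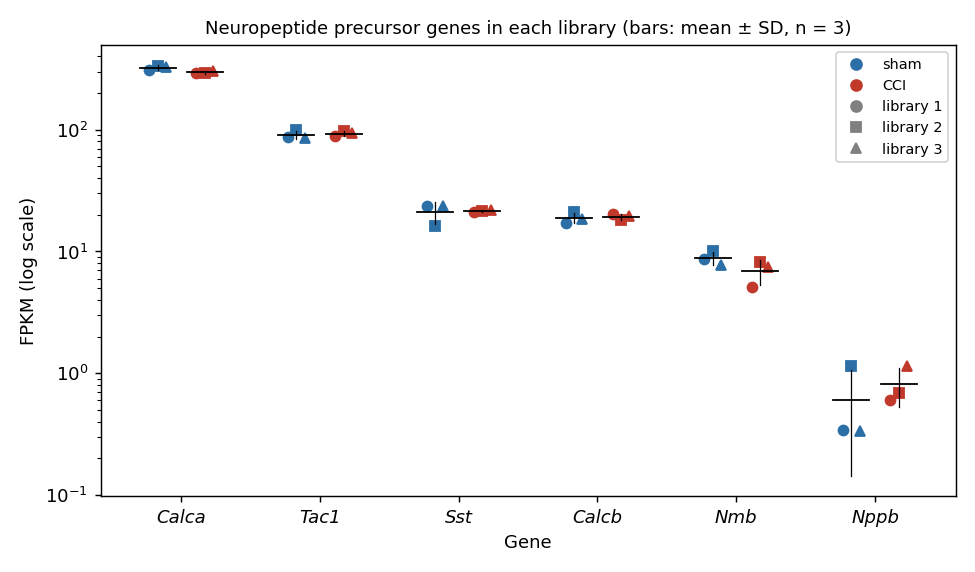
FPKM on a log axis for the 6 peptide genes with counts, in each sham (blue) and CCI (red) library, with the mean and SD of 3 libraries as bars and the library number as the symbol shape. Calca lies between 291 and 335 and Nppb between 0.335 and 1.14, the groups separate only for Calca, and sham 2 (blue square) is below the other sham libraries for Sst and above them for Nppb, where it is level with CCI 3.

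Tac1 is the precursor gene of substance P and neurokinin A, tachykinins that excite dorsal horn neurons. Its FPKM was 88.7, 96.8 and 93.5 in CCI 1, 2 and 3 and 87.0, 99.5 and 85.6 in sham 1, 2 and 3. The groups overlapped fully, since sham 2 was the highest library and sham 3 the lowest. The group means were 93.0 ± 4.07 (SD, n = 3) in CCI and 90.7 ± 7.64 (SD, n = 3) in sham. In the fit its log2 fold change was 0.02 with a standard error of 0.08 and a 95% interval of -0.16 to 0.20 (adjusted p = 0.959, edgeR's quasi-likelihood test). This interval leaves no room for a change of the size that the study's limit asks for.

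Calca encodes calcitonin and, by another splice form, alpha-CGRP, the vasodilator peptide that is the usual marker of peptidergic nociceptors. It had the highest level of the peptide genes described here, with an FPKM of 291, 291 and 303 in CCI 1, 2 and 3 and 306, 335 and 329 in sham 1, 2 and 3. Every CCI library was below every sham library, and the gap between the highest CCI and the lowest sham library was small. Of all rows tested, 8.70% had CCI libraries that all lay below the sham libraries in CPM and 8.63% had the reverse, and Calca was 1 of 6 members with such a separation. The means were 295 ± 6.66 (SD, n = 3) in CCI and 323 ± 15.2 (SD, n = 3) in sham. The log2 fold change of -0.15 (standard error 0.06, 95% interval -0.29 to -0.01) is a fold of 0.901 and lies far inside the limit of 0.58. Calca was not called, since edgeR's quasi-likelihood test gave an unadjusted p of 0.0352 and an adjusted p of 0.418. The unadjusted p ran from 0.0107 to 0.247 over the alternatives, the highest in edgeR's exact test, and it was above 0.05 with limma and on leaving out any library other than sham 1.

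Calcb, the gene of beta-CGRP, is a paralogue of Calca with similar sequence, so reads of these genes could be assigned to either row and both levels are less certain. Its FPKM was 20.1, 18.0 and 19.6 in CCI 1, 2 and 3 and 17.3, 21.0 and 18.5 in sham 1, 2 and 3. The highest and the lowest library were both sham libraries, so the groups overlapped. Its fitted log2 fold change was 0.01 (standard error 0.09, 95% interval -0.21 to 0.23, adjusted p = 0.986, edgeR's quasi-likelihood test). The FPKM ratio of Calca to Calcb was 15.3 ± 0.849 (SD, n = 3) in CCI and 17.2 ± 1.06 (SD, n = 3) in sham. The groups overlapped (exact two-sided permutation p = 0.2, where the smallest possible p is 0.1).

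Sst encodes somatostatin, an inhibitory peptide that in the DRG is made by a small set of neurons linked to itch. Its FPKM was 21.2, 21.6 and 22.1 in CCI 1, 2 and 3 and 23.7, 16.1 and 23.7 in sham 1, 2 and 3. The CCI libraries lay close together and between the sham libraries, of which sham 2 was far below the others. The CPM varied with a coefficient of variation of 1.71% among the CCI and 20.4% among the sham libraries. The log2 fold change was 0.02 (standard error 0.16, 95% interval -0.36 to 0.39, adjusted p = 0.984 in edgeR's quasi-likelihood test) and -0.14 without sham 2 (unadjusted p = 0.158 by that edgeR test).

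Nppb encodes the B-type natriuretic peptide precursor, which in sensory neurons serves as a transmitter of itch. It was near the lower end of what was tested, and its counts were 37, 41 and 64 for CCI 1, 2 and 3 against 23, 68 and 21 for sham 1, 2 and 3. Sham 2 had the highest count and the other sham libraries the lowest ones. The exact Poisson 95% interval of sham 2, 52.8 to 86.2 counts, did not meet those of sham 1 and sham 3, which ended at 34.5 and 32.1 counts, so the sham libraries differed by more than counting error. Its FPKM was 0.608, 0.687 and 1.14 in CCI 1, 2 and 3 and 0.344, 1.14 and 0.335 in sham 1, 2 and 3. The fitted difference was 0.39 on the log2 scale with a standard error of 0.59 (adjusted p = 0.878, edgeR's quasi-likelihood test). The 95% interval, -1.01 to 1.80, includes changes past the limit in both directions, so a change of that size was not detectable at this spread. Without sham 2 the log2 fold change was 1.22 and Nppb was called higher (unadjusted p = 0.0453 in the same edgeR test), so this gene's result rests on 1 library.

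Nmb and Grp encode neuromedin B and gastrin-releasing peptide, the mammalian relatives of bombesin, and both have been linked to itch. The FPKM of Nmb was 5.09, 8.24 and 7.47 in CCI 1, 2 and 3 and 8.71, 10.1 and 7.81 in sham 1, 2 and 3. CCI 1 was the lowest library, and CCI 2 lay above sham 3, so the groups overlapped. The means were 6.93 ± 1.64 (SD, n = 3) in CCI and 8.86 ± 1.13 (SD, n = 3) in sham. The log2 fold change was -0.37 (standard error 0.20, 95% interval -0.84 to 0.10), and edgeR's quasi-likelihood test gave an unadjusted p of 0.103 and an adjusted p of 0.584. It was -0.19 without CCI 1 and -0.51 without CCI 2 (unadjusted p = 0.0484 in the same edgeR test), still short of the limit of 0.58.

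Grp had 0 counts in all 6 libraries. The exact Poisson 95% interval of 0 counts ends at 3.69 counts, near the floor of 3 counts (0.0342 to 0.0394 CPM depending on the library). No fold change can be given. Cldn5, a standard gene of endothelium, was also at 0 counts in all libraries, so a row at 0 in this table need not mean that the RNA was absent. RNA of the other 6 peptide genes was counted in every sham and CCI library, for Nppb at a low level, and whole ganglia do not show which cells it came from.

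The levels spanned a wide range. Among the 12988 protein-coding rows with a symbol that passed the filter, ranked by FPKM, Calca stood at place 43 by its mean over the 6 libraries (41 to 46 in single libraries) and Tac1 at place 304 (284 to 327). Sst followed at place 1820 (1647 to 2454) and Calcb at place 2059 (1870 to 2297). The places of Sst and Calcb overlapped and their FPKM ranges did too, so their order is not settled, while the other neighbours in the order Calca, Tac1, Sst or Calcb, Nmb and Nppb did not overlap in any library. Nmb stood at place 4895 (3953 to 6867) and Nppb at place 12481 (11516 to 12881).

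In both groups Calca and Tac1 supplied most of the RNA of the peptide genes. The summed FPKM of the 7 genes was 427, 436 and 446 in CCI 1, 2 and 3 and 443, 483 and 464 in sham 1, 2 and 3, which overlapped (exact two-sided permutation p = 0.2). Calca made up 68.2%, 66.7% and 67.8% of that sum in CCI 1, 2 and 3 and 69.1%, 69.4% and 70.7% in sham 1, 2 and 3. Tac1 made up 20.8%, 22.2% and 20.9% in CCI 1, 2 and 3 and 19.6%, 20.6% and 18.4% in sham 1, 2 and 3. For each of these genes the groups separated, with Calca at a lower and Tac1 at a higher share in the CCI libraries. The shares are tied, since a lower Calca share raises the others by arithmetic, and the FPKM of Tac1 itself overlapped between the groups.

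The exact two-sided permutation test of 3 libraries against 3 cannot go below p = 0.1, which both shares reached. The ratio of Calca to Tac1 in FPKM, 3.17 ± 0.147 (SD, n = 3) in CCI and 3.58 ± 0.238 (SD, n = 3) in sham, separated the groups too (exact permutation p = 0.1). It is built from the same values as these shares and is no separate result. Against the summed counts of the pan-neuronal markers of its own library, Calca had log2 ratios of -5.70, -5.72 and -5.65 in CCI 1, 2 and 3 and -5.54, -5.53 and -5.53 in sham 1, 2 and 3. The difference of -0.16 (exact permutation p = 0.1) was near the fitted fold change, with the same Calca counts in both. Such a ratio needs no scaling between libraries but depends on the markers. Of these 13 markers, 3 had CCI libraries all above the sham libraries and 1 had them all below. Of the 15 shares and ratios compared, the lowest Benjamini-Hochberg adjusted p of these exact permutation tests was 0.333. With a smallest possible p of 0.1 none could have come under 0.05, so these tests cannot decide whether a share changed. Calcb made up 4.41% and 4.07%, Sst 4.96% and 4.59%, Nmb 1.58% and 1.91% and Nppb 0.185% and 0.129% of the sum in CCI and sham, as means of 3 libraries.

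Across the 6 libraries some of these genes varied together, which is given here as a description only, because 6 libraries share their group and depth. Log2 CPM values of Tac1 and Nppb had a Pearson r of 0.82 and those of Tac1 and Sst one of -0.85. Sham 2 was the library with the highest Tac1 and Nppb and the lowest Sst. Calca and Calcb, which are neighbours on the chromosome, had an r of 0.37, and Calca and Nmb one of 0.62.

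The rows most like each gene over the 6 libraries were picked from 12988 rows, and the highest of so many values is high by selection. For Tac1 these were Ppil3 (r = 0.99), Rtkn (0.99) and Crip1 (0.98), and for Calca they were Slc9a5, Usp35 and Fbxw5, with r of at least 0.99. Calcb was followed most closely by Pdp2, Calr and Plekhf2 (r = 0.99 each). For Sst the closest rows were the one that joins Pura and Igip, LOC103689945 and Syne4 (r = 0.99 each), and for Nppb they were Dact2, Wwtr1 and Ybx1-ps3 (r = 0.99 each). For Nmb they were Ech1, Trim23 and Pak1, with r of 0.99, 0.99 and 0.98. None of the peptide genes was among the 3 rows closest to another.

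**Figure D2:**
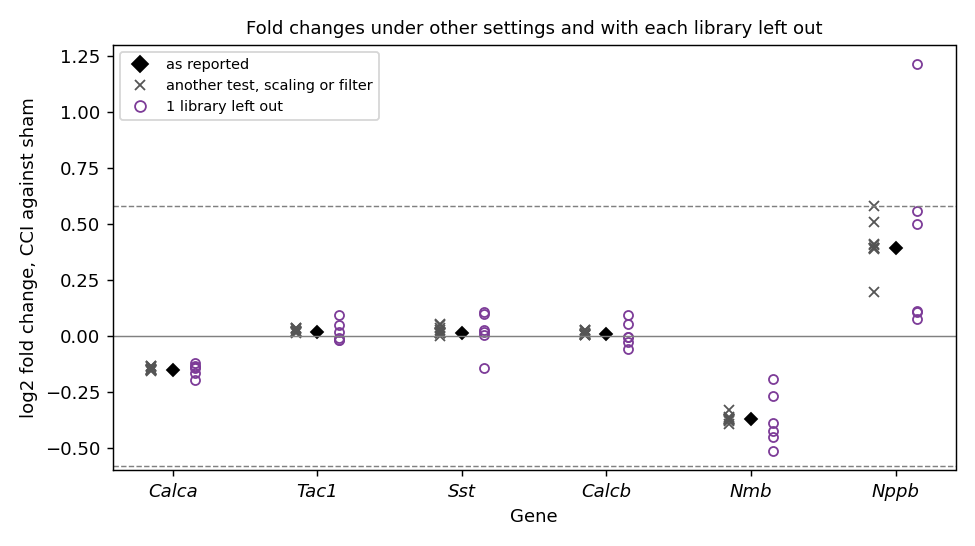
Log2 fold change of CCI against sham for each peptide gene as reported (diamonds), under other tests, scalings or filters (crosses) and with 1 library left out (circles), with dashed lines at -0.58 and 0.58. Calca and Nmb stayed below 0 throughout, Tac1, Calcb and Sst stayed near 0, and Nppb reached 1.22 without sham 2.

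Receptors for these peptides were read in the same ganglia, although most of their targets lie in the spinal cord, skin and vessels. Of 20 receptor genes and subunits listed, 9 were tested, 1 was called higher and 0 lower, and their log2 fold changes had a median of -0.00. The gene called was Sstr4, a somatostatin receptor that inhibits nociceptors. Its FPKM was 1.52, 0.497 and 0.599 in CCI 1, 2 and 3 and 0.157, 0.246 and 0.119 in sham 1, 2 and 3, so every CCI library was above every sham library at a low level. Its row passed the filter on low values through the CCI libraries, since the means were 0.873 in CCI and 0.174 in sham, which a row as low as its sham level in both groups would not have done. The log2 fold change was 2.28 (standard error 0.53, adjusted p = 0.222 in edgeR's quasi-likelihood test), 1.61 without CCI 1, and the row was not tested where a mean FPKM of at least 1 was asked for. Sstr3, named after its values were seen, was under the filter, and its counts were 140, 96 and 99 for CCI 1, 2 and 3 against 33, 8 and 27 for sham 1, 2 and 3, also without overlap.

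The other tested receptors had smaller fold changes. Calcrl, which forms the CGRP receptor together with Ramp1, had a log2 fold change of 0.07 (standard error 0.24) and Ramp1 one of -0.21 (standard error 0.23). Npr2, the natriuretic receptor with the highest FPKM of the list (a mean of 26.1), was at -0.00 (standard error 0.07). Npr3, the receptor that clears natriuretic peptides, had an FPKM of 3.63, 3.51 and 3.57 in CCI 1, 2 and 3 and 2.46, 2.69 and 2.54 in sham 1, 2 and 3. Its groups did not overlap, and its log2 fold change, 0.46 (standard error 0.07, adjusted p = 0.103 in edgeR's quasi-likelihood test), stayed under the limit of 0.58. Ramp3 and Ramp2 were the receptor genes with the next highest FPKM, at log2 fold changes of -0.04 and -0.01, and the row of Ramp2 joins 5 genes. The tachykinin receptor genes Tacr1, Tacr2 and Tacr3 and the bombesin-family receptor genes Nmbr and Grpr were below the filter on low values. Of these, 2 are given after their values were seen. Tacr1 had 58, 10 and 0 counts in CCI 1, 2 and 3 against 90, 68 and 45 in sham 1, 2 and 3, and the groups overlapped. Nmbr had 8, 14 and 9 counts in CCI 1, 2 and 3 against 5, 0 and 0 in sham 1, 2 and 3, without overlap at very low counts. Neither difference was tested.

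Of 8 relatives of the peptide families, 7 were found and 3 were tested, none of them called, and 0.31 was the median log2 fold change over Iapp (amylin), Nppa (atrial natriuretic peptide) and Adm (adrenomedullin). All 19 genes of peptide processing and dense-core vesicles were tested and 0 were called in either direction, with a median of -0.05. Among them Scg3 (a vesicle granin), Cpe (the carboxypeptidase that trims the cut peptides) and Ptprn (a vesicle membrane protein) had the highest FPKM, with log2 fold changes of 0.04, -0.08 and 0.28. The convertase genes Pcsk1 and Pcsk2 were at 0.08 and -0.16, and Pam, the enzyme that amidates substance P and CGRP, was at -0.01. Chga (chromogranin A), named after its values were seen, had the largest difference of the list, with an FPKM of 30.6, 29.9 and 28.6 in CCI 1, 2 and 3 and 43.4, 39.0 and 44.5 in sham 1, 2 and 3. The groups did not overlap, and its log2 fold change, -0.52 (standard error 0.07, adjusted p = 0.0789 in edgeR's quasi-likelihood test), was under the limit. Of the 6 peptidases that break the peptides down, such as Mme (neprilysin), 0 were called and the median was -0.10, with Ece1, Ide and Ece2 the most abundant at 0.08, -0.04 and 0.12.

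**Figure D3:**
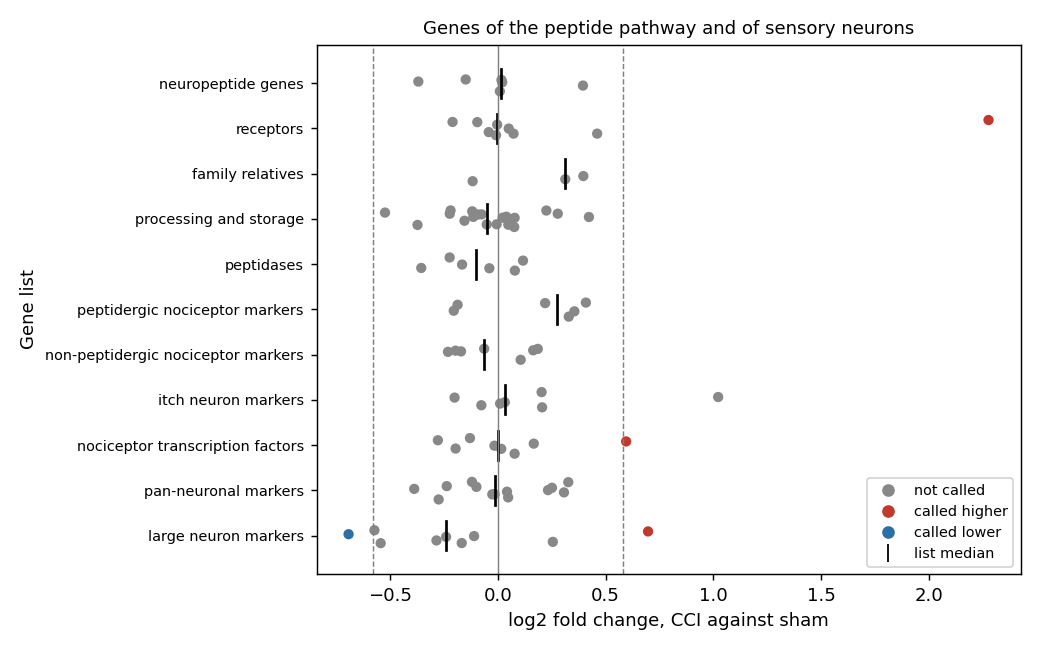
Log2 fold change of CCI against sham for every tested gene of 11 lists, 1 point a gene, coloured by call, with the list median as a black bar and dashed lines at -0.58 and 0.58. All 6 peptide genes are grey (not called), and Sstr4 is the point past 2.

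The neurons that make these peptides were present by their markers in both groups. Of the 6 markers of peptidergic nociceptors 0 were called, and the median log2 fold change was 0.27. Trpv1 (the capsaicin receptor) had CCI libraries below the sham libraries, at -0.19, as Calca did, while Trpa1 and Gfra3 had them above, at 0.35 and 0.41. Of 7 tested markers of non-peptidergic nociceptors 0 were called (median -0.06), with P2rx3, Ret and Gfra2 the most abundant at 0.16, 0.11 and -0.06. Of 7 markers of itch neurons, the class in which Nppb and Sst are found, 0 were called (median 0.03), and Jak1, Il31ra and Mrgprx3 were the most abundant at -0.08, 0.03 and -0.20. Of 8 nociceptor transcription factors 1 was called higher, Klf7, at 0.60 (adjusted p = 0.151 in edgeR's quasi-likelihood test), on a row that joins 2 genes and lost its call without CCI 1, without sham 1 and with limma on log2(FPKM + 1). Drgx, Zeb2 and Tlx3 had the highest FPKM of that list, at -0.28, 0.08 and -0.02. The Zeb2 row is 1 of 6 rows with that symbol and has no transcript type, so it may not stand for the whole gene.

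Of 13 pan-neuronal markers 0 were called (median -0.02), with Tubb3, Map1b and Uchl1 the most abundant at 0.31, -0.10 and 0.05. Among 9 tested markers of large sensory neurons, 1 was called lower, Pvalb (parvalbumin of muscle afferents), at -0.69. Its adjusted p was 0.144 in edgeR's quasi-likelihood test, and the call was lost without sham 1, at -0.57. Sham 1 was the highest library for Pvalb and also the one with the most skeletal muscle RNA. The part of muscle RNA in the Pvalb row was not tested. In the same list 1 was called higher, Calb1, at 0.70 (adjusted p = 0.362 in the same edgeR test). The call of Calb1 was lost with limma on log2(FPKM + 1) and on leaving out any of 4 libraries. The median of the large neuron markers was -0.24, with Nefl, Nefh and Nefm the most abundant at -0.57, -0.54 and -0.29. The neurofilament Nefl passed an adjusted p under 0.05 (adjusted p = 0.0457 in edgeR's quasi-likelihood test) with a fold change just under the limit of 0.58.

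Peptide genes known to rise in injured sensory neurons differed in their fold changes from those described here in the same libraries. Npy, Gal, Vip and Adcyap1 (neuropeptide Y, galanin, vasoactive intestinal peptide and PACAP), 4 genes known for this from earlier work, were all called higher. The study itself names these 4 genes as upregulated in its own data, and they were listed here with that known. Their calls are therefore a description and no independent test. The FPKM of Npy was 118, 64.8 and 55.7 in CCI 1, 2 and 3 and 1.22, 0.994 and 1.09 in sham 1, 2 and 3, and the fitted value was 6.14 on the log2 scale (standard error 0.36, adjusted p = 0.00490 in edgeR's quasi-likelihood test). A second row, a pro-neuropeptide Y-like gene on the same chromosome, may share reads with it. Gal had an FPKM of 90.0, 34.0 and 42.9 in CCI 1, 2 and 3 and 2.06, 2.22 and 3.04 in sham 1, 2 and 3 (log2 fold change 4.49, standard error 0.43, adjusted p = 0.0383 in the same edgeR test). The counts of Vip were 1344, 374 and 240 for CCI 1, 2 and 3 against 0, 0 and 8 for sham 1, 2 and 3. Its log2 fold change was 7.91 (standard error 1.27, adjusted p = 0.109 in the same edgeR test). The Vip row passed the filter on low values through the CCI libraries, since its mean FPKM in sham was 0.0147. A row that low in both groups would not have been tested. Adcyap1 was higher by 1.10 on the log2 scale (standard error 0.17, adjusted p = 0.103 in the same edgeR test). Of these 4 genes, 2 (Npy and Gal) had an adjusted p under 0.05 in that test.

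CCI 1 was the library with the most of each of these 4 injury-induced peptides, and it was also the CCI library with the lowest Nmb. In CCI 1 Calca lay between the other CCI libraries and Tac1 was the lowest of the CCI libraries. The summed FPKM of the injury-induced peptides was 264, 140 and 131 in CCI 1, 2 and 3 and 20.5, 22.2 and 22.9 in sham 1, 2 and 3. Most of this sum in sham was Adcyap1. The peptide genes followed here held 61.7%, 75.7% and 77.3% of the summed FPKM of all 11 peptide genes in CCI 1, 2 and 3 and 95.6%, 95.6% and 95.3% in sham 1, 2 and 3. These shares did not overlap, but the 4 injury-induced genes were listed with their rise known, and the difference was not tested. The sum of Tac1, Calca, Calcb, Sst, Nppb and Nmb overlapped between the groups, while that of Npy, Gal, Vip and Adcyap1 did not.

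**Figure D4:**
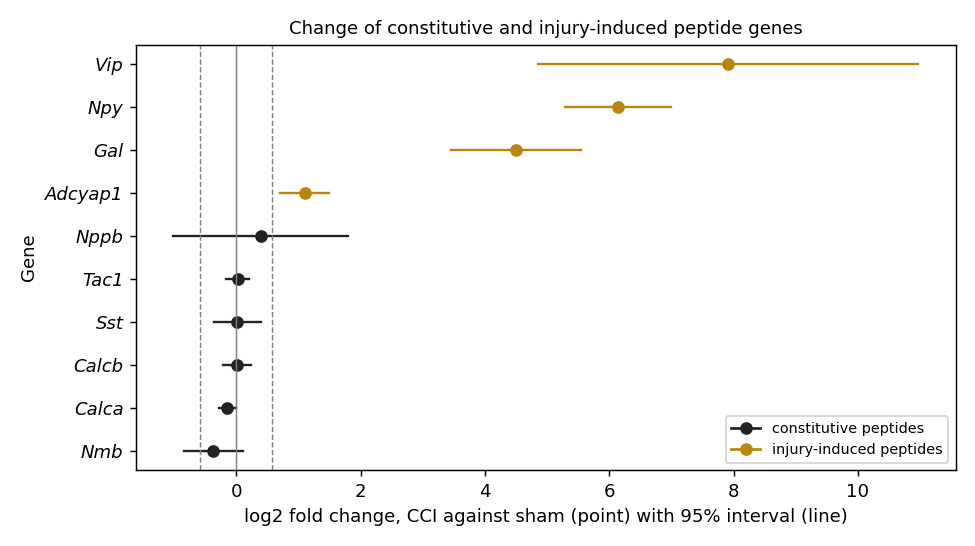
Log2 fold change of CCI against sham (points) with 95% intervals (lines) for the 6 tested peptide genes followed here (black) and 4 injury-induced ones (gold), with dashed lines at -0.58 and 0.58. The black intervals include 0 except that of Calca, which ends at -0.01, and the gold ones lie above 0.58.

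Markers of other cells were read in the same libraries. Of 9 macrophage markers 6 were called higher (Cd68, Csf1r, Cx3cr1, C1qa, C1qb and C1qc) and 0 lower (median log2 fold change 0.87), with a summed CPM of 114 to 175 in CCI and 79.9 to 106 in sham. Of 8 skeletal muscle markers 0 were called higher and 5 lower (Acta1, Tnni2, Mylpf, Ckm and Actn3), with sham 1 far above the rest. On leaving out sham 1, CCI 2 or CCI 3 the number of muscle markers called lower was 1, and with limma it was 0. Without sham 1 the log2 fold change was -0.02 for Tac1, -0.19 for Calca and -0.06 for Calcb, and none of these was called. For satellite glia 0 of 6, for Schwann cells 0 of 7, for fibroblasts 0 of 4, for endothelium 0 of 3 and for erythrocytes 0 of 2 tested markers were called. Of the spinal cord markers 2 were tested and Gfap, which glia of the ganglion also make, was called higher. Its adjusted p was 0.236 in edgeR's quasi-likelihood test. Slc32a1 was at 0 in all libraries. The part of macrophage or muscle RNA in the levels of the peptide genes was not tested, and relative to the pan-neuronal markers of each library the log2 difference between the groups was 0.01 for Tac1, 0.00 for Calcb, 0.03 for Sst, 0.58 for Nppb and -0.40 for Nmb.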

How the data were processed

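RNA-seq of 6 rat DRG libraries, 3 CCI and 3 sham, was re-analysed, grouped by the surgery named in the titles. The authors mapped clean reads with HISAT2 2.0 to the genome they call V101 and assembled them with StringTie 1.3.0, per the submitters' processing notes and the methods. The deposited counts are whole numbers of reads per gene row, not normalized. The deposited FPKM values are those counts divided by row length and column total, and rows with 0 counts, listed by the authors at a small constant, were set to 0. The strand setting of the counting is not given in the sources used here. Rows with no symbol, between 5.37% and 5.72% of each library's counts, were kept in the fit.

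Counts of rows that averaged an FPKM of 0.5 or more were fitted with edgeR 4.0.16 (TMM factors 0.988 to 1.01, trended prior, 2.52 prior degrees of freedom, quasi-likelihood test, Benjamini-Hochberg adjustment over all 26663 rows), which was first tested on simulated data. Standard errors and 95% intervals come from that fit, and Poisson intervals and the floor of 3 counts cover counting error only. Shares and ratios were compared with exact two-sided permutation tests. Libraries of the same group differed by more than sampling noise in every pair (chi-square per degree of freedom between 51.4 and 74.7).

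Alternatives were DESeq2 1.42.0 (its size factors, and its Wald test), edgeR's exact test, limma 3.58.1 on log2(FPKM + 0.1) and log2(FPKM + 1), scaling to the pan-neuronal markers, an FPKM filter of 1, no filter, protein-coding rows alone, the replicate number as a block, and omission of each library in turn. The genes and the 19 lists beside them were chosen with earlier results of these data known. Named by rule are all 7 peptide genes, from each list the genes called, and for each peptide gene the 3 rows most like it. For lists of peptide and neuron genes, up to 3 of the highest FPKM were added. Other genes were named outside this rule, among them Npr3, Calcrl, Ramp1, Pcsk1, Pcsk2, Pam and Trpv1. Only some of these others are marked as chosen after their values were seen. R 4.3.3 and Python 3.11.15 were used. The miRNA libraries and the qRT-PCR were not analysed here. The values of 1 listed marker are not reported here.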

Additional observations from a re-analysis of the deposited data

How the results depend on the processing

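Over 16 alternatives (15 for Nppb, which was not tested at a mean FPKM of at least 1), 0 of the peptide genes were called, with 1 exception. Without sham 2, 1 was called higher, Nppb, so that the number called higher ranged from 0 to 1 on leaving out single libraries. Small fold changes crossed 0 when 1 library was left out, where the log2 fold change ran from -0.0159 to 0.0946 for Tac1, from -0.0590 to 0.0949 for Calcb and from -0.143 to 0.110 for Sst. It kept its sign for Calca (-0.19 to -0.12), Nmb (-0.51 to -0.19) and Nppb (0.08 to 1.22). The replicate numbers did not pair the samples (correlations of the deviations -0.01, -0.03 and -0.07, with 0 of 6 libraries closest to their own number in the other group), and with the replicate block 0 peptide genes were called higher and 0 lower. Among the genes named from the other lists, the block took the call from the muscle genes Acta1 and Actn3. The tests, scalings and filters changed the direction of none of the 6 genes. Nppb had only 21 to 68 counts a library, and its sham libraries differed by more than counting error. With 3 rats a group the 95% interval of a row reached a median of 0.43 to either side over all rows tested.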

Other observations

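Some genes of the lists varied more between libraries of a group than between the groups, and they are named here after their values were seen. Vgf, another peptide precursor of sensory neurons, had an FPKM of 9.36, 5.19 and 3.24 in CCI 1, 2 and 3 and 1.07, 3.48 and 8.53 in sham 1, 2 and 3. Il31ra, a receptor subunit of itch neurons, had an FPKM of 13.9, 7.30 and 13.7 in CCI 1, 2 and 3 and 6.31, 12.6 and 14.8 in sham 1, 2 and 3. Its lowest libraries were CCI 2 and sham 1, while Sst was lowest in sham 2 and Nppb in sham 1 and sham 3.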
